A study of Mus musculus with 10 samples.

Results

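The 10 transcripts described here belong to the receptor network through which hepatocytes sense bile acids, sterols, fatty acids and foreign chemicals: Hnf4a, Nr5a2, Nr1h4, Nr0b2, Nr1h3, Ppara, Nr1i2, Nr1i3, Rxra and Ahr. They were taken by symbol from a list of hepatic receptors that was chosen with earlier results of these data known. All 10 (hnf4a, nr5a2, nr1h4, nr0b2, nr1h3, ppara, nr1i2, nr1i3, rxra and ahr as the tables write them) were found among the 14812 gene entries deposited. Of these, 9 belong to the nuclear receptor superfamily. Ahr, the aryl hydrocarbon receptor, is a ligand-activated factor of the bHLH-PAS family, and so is not a nuclear receptor by family. Nr0b2 encodes SHP, an atypical nuclear receptor that lacks a DNA-binding domain.

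Hepatocytes were taken from male C57BL/6 mice, aged 3 months and fed chow ad libitum, at 4 zeitgeber times (ZT, hours after lights on). All groups were alike in strain, sex, age, diet, ketamine and xylazine anaesthesia, collagenase perfusion and Percoll purification. They differed by time: 3 libraries at ZT0 (A, B and C), 2 at ZT6 (A and B), 3 at ZT12 (A, B and C) and 2 at ZT18 (A and B). How many mice gave a library is not stated in the labels, so p-values measure the spread between these libraries, which may be partly technical. Libraries held 710 to 2860 cells and 1454623 to 7144803 UMIs (distinct tagged molecules), with 1588 to 2662 UMIs in the median cell.

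Nuclear receptors bind DNA as monomers, homodimers or heterodimers, and ligand binding swaps co-repressors for co-activators on their target genes. FXR (Nr1h4), LXR alpha (Nr1h3), PPAR alpha (Ppara), PXR (Nr1i2) and CAR (Nr1i3) act as heterodimers with RXR alpha (Rxra), while HNF4 alpha (Hnf4a) acts as a homodimer and LRH-1 (Nr5a2) as a monomer. The liver lobule runs from the portal tract, where blood enters, to the central vein. Hepatocytes along this axis divide their work: urea and glucose production lean to the portal side, and bile acid synthesis and drug oxidation lean to the central side.

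The hepatocyte label was set against marker genes. The hepatocyte list (5 of 6 genes in the tables) summed to 31367 to 69461 CPM per library, where CPM is the UMI count relative to a fixed library size corrected by edgeR's TMM factor. Summed levels per library were 2.68 to 15.3 CPM for 8 endothelial markers, at most 13.0 CPM for 8 macrophage markers and at most 0.138 CPM for 7 lymphocyte markers. The endothelial genes Clec4g and Vwf and the macrophage genes Clec4f and Csf1r had no UMI in any library. The 8 stellate markers summed to 19.0 to 60.7 CPM. The 4 neutrophil markers in the tables summed to at most 7.74 CPM. The cholangiocyte list (5 of 6 genes in the tables, almost all of it Sox9) moved with time, at 17.6 to 36.6 CPM at ZT0, 0.789 to 4.05 at ZT6, 3.36 to 5.71 at ZT12 and 12.2 to 17.7 at ZT18, along both ZT12 against ZT0 and ZT18 against ZT6. The part of other cell types in the receptor values was not tested.

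Each receptor was counted from 1113 UMIs (Ahr) to 9843 UMIs (Hnf4a) over the 10 libraries, and a receptor in a single library from 37 to 1883 UMIs. The levels below therefore carry counting error as well as the spread between libraries. UMIs come from transcript 3′ ends and were not divided by transcript length, so levels are compared between libraries and not between genes.

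Promoters are shown for Nr0b2 and Nr1i3 because these were the receptors that differed among the 4 times. Among the receptor windows found, theirs were also the only ones to hold the E-box CACGTG, the letters recognised by CLOCK and BMAL1. Both are from RefSeq (GRCm38.p6), cover the 250 bases before the annotated start on the plus strand, are written 5′ to 3′, and have the E-box in capitals. The Nr0b2 window is chr4:133553126-133553375, with the E-box beginning 195 bases upstream of the start, and the Nr1i3 window is chr1:171213720-171213969, with the E-box beginning 244 bases upstream.
Nr0b2: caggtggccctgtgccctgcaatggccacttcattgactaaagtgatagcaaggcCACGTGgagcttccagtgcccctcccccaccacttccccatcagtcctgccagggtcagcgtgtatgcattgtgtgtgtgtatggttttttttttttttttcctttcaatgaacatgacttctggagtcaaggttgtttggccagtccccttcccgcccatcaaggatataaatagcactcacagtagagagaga
Nr1i3: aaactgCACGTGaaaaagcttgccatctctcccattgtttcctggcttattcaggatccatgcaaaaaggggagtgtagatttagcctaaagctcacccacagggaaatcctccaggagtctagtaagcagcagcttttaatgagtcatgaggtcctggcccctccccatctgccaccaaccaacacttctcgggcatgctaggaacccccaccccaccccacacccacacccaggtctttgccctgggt
The table gave 13 such windows for 9 of the 10 receptors, and 2 of them held CACGTG, against 6.02% of 32851 mouse windows of the same length. On both strands, the AHR core GCGTG was in 3 of the 13 windows (28.2% of all windows), the nuclear receptor hexamer AGGTCA in 3 (14.0%), the TCF/LEF letters TCAAAG in 1 (13.8%) and the D-box TTATGTAA in 0 (0.819%). GCGTG and CACGTG can share at most 1 end letter. These motifs were chosen after the levels had been seen, and a match describes letters, not binding.

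Across the day, Nr0b2 and Nr1i3 differed among the 4 times, and both were lowest at ZT18. The 8 other receptors did not pass the test among times. In a test of any difference among times (edgeR's quasi-likelihood test, Benjamini-Hochberg adjusted over 8908 genes, threshold 0.05), 2 of 10 receptors were called, against 6.58% of all genes tested. By the same tool, a 24-h cosine was called for 0 of 10, against 5.14% of all genes, while 5 of 10 had an unadjusted p under 0.05, as did 20.4% of all genes. DESeq2 called the cosine of 2, Nr0b2 and Nr1i3, and of 8.89% of all genes. The median log2 amplitude of the 10 receptors was 0.32, and that of all genes was 0.25.

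From ZT6 to ZT18, 2 of 10 receptors fell (3.79% of all genes were called in either direction, 1.45% lower and 2.35% higher at ZT18). The ZT18 mean was below the ZT6 mean in 9 of 10, with a median log2 difference of -0.43, against -0.009 over all genes. Libraries of these times did not overlap for 8 of 10 receptors, but with 2 libraries against 2 the same held for 63.1% of all genes. Both ZT18 libraries lay below the 8 others for 4 of 10 receptors, Nr0b2, Nr1i2, Nr1i3 and Ahr, and for 6.79% of all genes. The ZT18 libraries were also the only ones whose 10x sample index has a name ending in the number 4, so ZT18 and that index number cannot be told apart. The erythroid list (5 of 6 genes in the tables) summed to 101 CPM in ZT18 A and 379 CPM in ZT18 B. Its sums were 85.9 to 88.8 at ZT0, 78.1 to 83.3 at ZT6 and 70.5 to 94.4 at ZT12. Alas2 alone, a gene of this list, ranged from 69.8 to 93.6 CPM over the libraries. The part of the list in the ZT18 values was not tested.

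From ZT0 to ZT12, 0 of 10 receptors were called by edgeR (3.44% of all genes, 1.74% higher at ZT12 and 1.70% higher at ZT0). An unadjusted p under 0.05 was found for 5 of 10 (15.5% of all genes), and DESeq2 called 1, Nr1i3 (4.11%). The median log2 difference was 0.40, against -0.0008 over all genes. Library letters could be paired between these times, and 7 of 10 receptors were higher at ZT12 in each of the 3 pairs, against 21.3% of all genes. The libraries did not overlap for 3 of 10 (Nr1i2, Nr1i3 and Rxra), against 17% of all genes.

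**Figure D1:**
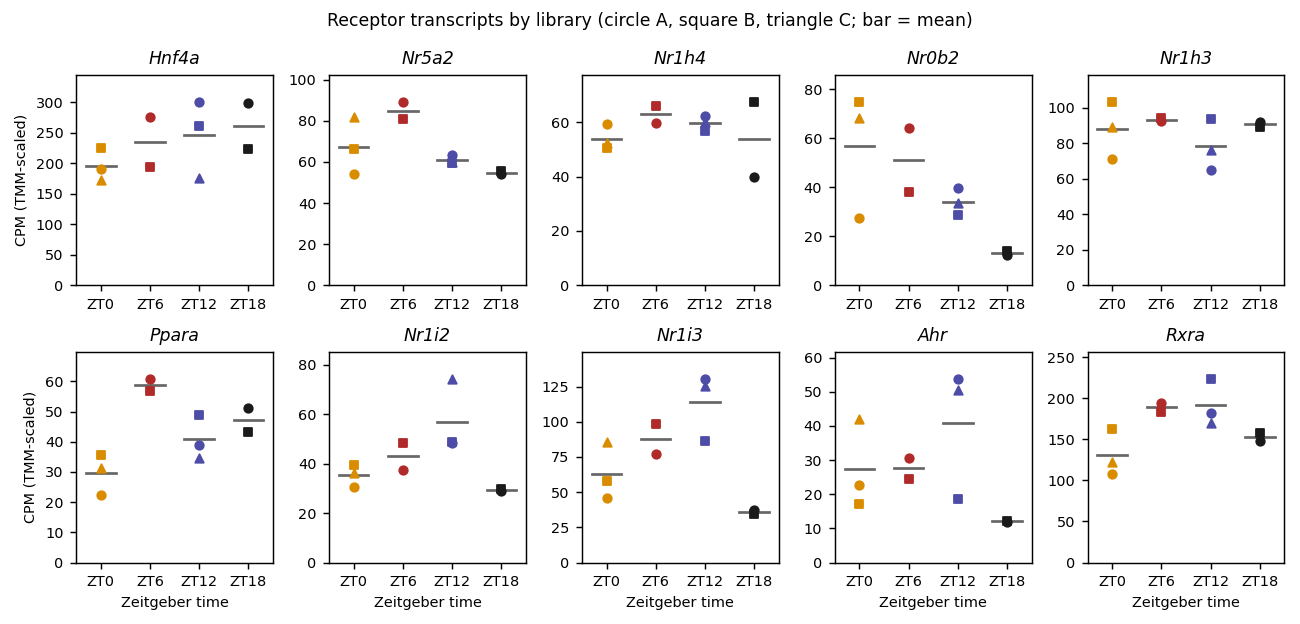
Level of each receptor transcript (vertical axis, TMM-scaled CPM from 0) at each zeitgeber time (horizontal axis); each point is 1 library, its shape gives the letter (circle A, square B, triangle C) and the grey bar is the mean of the 3, 2, 3 and 2 libraries. Both ZT18 points lie below all other points for Nr0b2, Nr1i2, Nr1i3 and Ahr. For Hnf4a and Nr1h4 each time overlaps the next in the order of means, though the ZT0 points of Nr1h4 lie just below its ZT6 points.

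Hnf4a (chr2:163506808-163572910, plus strand, GRCm38, GENCODE M21), a master regulator of hepatocyte identity, measured 191, 224 and 172 CPM at ZT0, 276 and 194 at ZT6, 300.0, 260.4 and 176 at ZT12, and 299 and 223 at ZT18. The lowest and the highest library differed by less than 2-fold and every time overlapped the next in the order of means, from ZT18 over ZT12 and ZT6 to ZT0. Its cosine had a log2 amplitude of 0.18 (edgeR adjusted p = 0.648).

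Nr5a2 (chr1:136842571-136960448, minus strand), which encodes LRH-1, a factor for bile acid synthesis genes, measured 54.2, 66.2 and 81.7 CPM at ZT0, 89.1 and 80.8 at ZT6, 63.1, 59.3 and 59.7 at ZT12, and 54.0 and 55.5 at ZT18. The ZT6 libraries were above those of ZT12 and ZT18 and overlapped those of ZT0. The log2 difference from ZT6 to ZT18 was -0.63 ± 0.23 (SE; edgeR adjusted p = 0.137).

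Nr1h4 (chr10:89454234-89533585, minus strand) encodes FXR, the bile acid receptor. It ranged from 39.9 CPM (ZT18 A) to 67.4 CPM (ZT18 B), so the widest spread was within one time. Its group means were 54.0 ± 4.62 (SD, n = 3) at ZT0, 62.8 ± 4.30 (n = 2) at ZT6, 59.8 ± 2.88 (n = 3) at ZT12 and 53.6 ± 19.4 (n = 2) at ZT18, and no test among times called it (edgeR adjusted p = 0.822).

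Nr0b2 (chr4:133553376-133556536, plus strand) is itself a classical FXR target, and its product SHP represses bile acid synthesis. It measured 27.5, 74.7 and 68.2 CPM at ZT0, 64.2 and 38.2 at ZT6, 39.6, 28.6 and 33.4 at ZT12, and 12.2 and 13.9 at ZT18. Both ZT18 libraries were lower than any other, with 38 and 49 UMIs and 95% Poisson intervals, which cover counting error only, of 8.65 to 16.8 and 10.3 to 18.3 CPM. The order of means ran from ZT0 over ZT6 and ZT12 to ZT18, and ZT0, ZT6 and ZT12 overlapped their neighbours in that order.

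Nr0b2 fell by 1.98 ± 0.42 on the log2 scale from ZT6 to ZT18 (3.95-fold, edgeR adjusted p = 0.0208), and differed among the 4 times with edgeR adjusted p = 0.0217. Its cosine had a log2 amplitude of 1.02 with a fitted peak at ZT4.43 and missed the threshold (edgeR adjusted p = 0.0838). The fall from ZT6 to ZT18 was no longer called without ZT6 A (adjusted p = 0.215), ZT18 A (0.178) or ZT18 B (0.159), and the difference among times was lost without ZT18 A (0.151), ZT18 B (0.130) or both (0.452), all by edgeR. The ZT0 library A, at 27.5 CPM, stood below B and C; without it the difference from ZT0 to ZT12, -0.77 ± 0.32 with all libraries (edgeR adjusted p = 0.264), was -1.10 (edgeR adjusted p = 0.0178).

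Nr1h3 (chr2:91184061-91202834, minus strand) encodes LXR alpha, the oxysterol receptor that drives sterol export and fatty acid synthesis genes. It was the steadiest of the 10 by fitted amplitude, 0.08 on the log2 scale (edgeR adjusted p = 0.877). The lowest library was 65.1 CPM (ZT12 A) and the highest 103 CPM (ZT0 B). Its means were 87.9 ± 16.1 (SD, n = 3), 93.4 ± 1.20 (n = 2), 78.3 ± 14.5 (n = 3) and 90.7 ± 1.79 (n = 2) CPM from ZT0 to ZT18.

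Ppara (chr15:85734983-85802819, plus strand) encodes PPAR alpha, the fatty acid receptor behind the fasting programme of fat oxidation. It measured 22.2, 35.5 and 31.4 CPM at ZT0, 60.7 and 56.8 at ZT6, 38.9, 48.8 and 34.7 at ZT12, and 51.1 and 43.3 at ZT18. The ZT6 libraries were the highest of all 10, and ZT0 overlapped ZT12. The means spanned 1.98-fold, from 29.7 ± 6.81 (SD, n = 3) at ZT0 to 58.7 ± 2.79 (n = 2) at ZT6, and the test among times did not pass (edgeR adjusted p = 0.0755; DESeq2 adjusted p = 0.0473).

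Nr1i2 (chr16:38248323-38294824, minus strand) encodes PXR, a broad sensor of drugs and steroids. It measured 30.7, 39.5 and 36.1 CPM at ZT0, 37.4 and 48.5 at ZT6, 48.3, 48.7 and 74.2 at ZT12, and 28.9 and 29.7 at ZT18. All ZT12 libraries lay above all ZT0 libraries, and both ZT18 libraries lay below the rest. The log2 difference from ZT0 to ZT12 was 0.68 ± 0.21 (edgeR adjusted p = 0.108), and its test among times gave edgeR adjusted p = 0.0789.

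Nr1i3 (chr1:171213970-171220701, plus strand) encodes CAR, the partner sensor to PXR in drug-induced transcription. It measured 45.8, 58.0 and 85.3 CPM at ZT0, 77.1 and 98.2 at ZT6, 130.2, 86.4 and 125 at ZT12, and 37.0 and 34.8 at ZT18. The order of means was ZT12, ZT6, ZT0 and ZT18, spanning 3.17-fold; ZT18 did not overlap ZT0, and the other neighbours overlapped.

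Nr1i3 fell by 1.28 ± 0.31 on the log2 scale from ZT6 to ZT18 (2.43-fold, edgeR adjusted p = 0.0350) and differed among the 4 times with edgeR adjusted p = 0.0141. The log2 difference from ZT0 to ZT12 was 0.84 ± 0.24 (edgeR adjusted p = 0.0829), and with the library letter as a replicate block, which called 5.66% of all genes, it was 0.87 (edgeR adjusted p = 0.0246), higher in 3 of 3 letters. The block also brought its cosine past the threshold, from edgeR adjusted p = 0.0703 to 0.0167 (8.41% of all genes were then called). The call from ZT6 to ZT18 was lost when any 1 of the 4 libraries was left out (edgeR adjusted p = 0.135 without ZT6 A, 0.249 without ZT6 B, 0.206 without ZT18 A and 0.249 without ZT18 B), and the call among times without ZT18 A (0.0826), ZT18 B (0.101) or both (0.231). The summed level of the 8 periportal landmark genes was 4066 to 4723 CPM in the ZT18 libraries, above the 2933 to 3753 CPM of the 8 others. The pericentral landmark sums at ZT18, 7248 and 7974 CPM, lay within the 7019 to 14869 CPM of the others. ZT12 A and C, the highest for Nr1i3, had sums of 11527 and 12843 CPM, against 7103 CPM in ZT12 B. ZT0 C had the highest sum, 14869 CPM, with Nr1i3 at 85.3 CPM. Within the pericentral group of cells the mean of Nr1i3 was 135 CPM at ZT6 and 65.1 CPM at ZT18, and within the periportal group 38.8 and 16.3 CPM. Each group is an equal part of its own library's cells. These means therefore cannot tell time from a shift of the whole library along the axis. The part of the landmark levels in the ZT12 and ZT18 values of Nr1i3 was not tested.

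Ahr (chr12:35497974-35535038, minus strand) senses dioxins, tryptophan products and other planar aromatics. It measured 22.8, 17.3 and 41.9 CPM at ZT0, 30.6 and 24.4 at ZT6, 53.7, 18.5 and 50.5 at ZT12, and 11.9 and 12.2 at ZT18. The ZT18 libraries were the lowest, with 37 and 43 UMIs, and the ZT0 and ZT12 libraries were widely spread. The log2 difference from ZT6 to ZT18 was -1.20 ± 0.50 (edgeR adjusted p = 0.200). The summed level of the 8 pericentral landmark genes in the same libraries was 11436, 7019 and 14869 CPM at ZT0, 7423 and 9220 at ZT6, 11527, 7103 and 12843 at ZT12, and 7248 and 7974 at ZT18, and its 3 highest values fell in the libraries with the 3 highest Ahr values; its part in the Ahr values was not tested.

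Rxra (chr2:27676440-27762957, plus strand), the shared heterodimer partner, measured 107, 162 and 122 CPM at ZT0, 194 and 184 at ZT6, 183, 223 and 169.6 at ZT12, and 148 and 158 at ZT18. All ZT12 libraries and both ZT6 libraries lay above all ZT0 and ZT18 libraries. The log2 difference from ZT0 to ZT12 was 0.56 ± 0.20 (edgeR adjusted p = 0.186).

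Along the lobule axis, Ahr and Nr1i3 were much higher on the central side, Ppara was modestly higher there, and Hnf4a was slightly higher on the portal side. For this, the cells of each library were ordered by 8 periportal and 8 pericentral landmark genes, none of them a receptor of the set. They were split into 3 equal groups, and the outer groups are the periportal and pericentral zones. One pericentral landmark, Cyp1a2, is also an AHR target. With 3 landmarks left out, Cyp1a2 among them, Ahr and Nr1i3 were still called, as were 24.7% of all genes. By edgeR's quasi-likelihood test with the library as a block, 4 of 10 receptors were called between zones, against 24.8% of 8923 genes. Of these, 3 were higher pericentrally (12.8% of all genes) and 1 periportally (12%). The median log2 difference, periportal minus pericentral, was -0.10 for the 10 receptors and -0.006 for all genes, and the median size was 0.18 against 0.19.

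Median UMIs per cell ran from 1541 to 3089 in the pericentral and from 1577 to 2720 in the periportal zone, and were higher periportally in 7 of 10 libraries, among them all 5 of ZT12 and ZT18. Mitochondrially encoded genes took 12% to 23.1% of pericentral and 14.0% to 25.3% of periportal UMIs, higher periportally in 10 of 10 libraries, and the part of depth and of these genes in the zone values was not tested. Summed over each zone, the endothelial markers ranged from 2.03 to 16.1 CPM pericentrally and from 1.16 to 16.0 CPM periportally, and the stellate markers from 5.35 to 51.2 and from 16.6 to 59.4 CPM. The cholangiocyte list was higher periportally, with a median of 2.43 CPM (highest 15.5) in the pericentral and 14.3 CPM (highest 54.2) in the periportal zone, and its part was not tested either.

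Ahr ranged from 23.5 to 104 CPM in the pericentral zone (median 41.5, 10 libraries) and from 2.71 to 16.4 CPM in the periportal zone (median 8.75). The zones did not overlap, and Ahr was higher pericentrally in 10 of 10 libraries, as were 5.68% of all genes. The sums were 684 UMIs against 121. The log2 difference was -2.41 ± 0.12 (5.30-fold, edgeR adjusted p = 2.34689e-17), and over 8 layers of equal cell number the mean fell at each of 7 steps, from 61.9 CPM next to the central vein to 5.39 CPM next to the portal tract (11.5-fold).

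Nr1i3 ranged from 54.9 to 197 CPM pericentrally (median 116) and from 13.6 to 49.4 CPM periportally (median 34.5), from 1717 and 464 UMIs. Again the zones did not overlap and all 10 libraries agreed in direction. The log2 difference was -1.82 ± 0.09 (3.54-fold, edgeR adjusted p = 1.95225e-17), and the layer means fell at 7 of 7 steps, from 139 to 25.3 CPM (5.48-fold). The annotation places the antisense gene Tomm40l over the 3′ end of Nr1i3, and the strand used in counting is not given in the sources used here. Tomm40l, from 465 UMIs in all, had the opposite zone difference, 1.28 ± 0.19 (edgeR adjusted p = 1.43562e-06).

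Ppara measured 47.4 ± 13.9 CPM pericentrally and 36.0 ± 13.6 periportally (SD, n = 10), a log2 difference of -0.44 ± 0.12 (SE; 1.36-fold, edgeR adjusted p = 0.00431). It was lower periportally in 8 of 10 libraries; the 2 exceptions were ZT12 C and ZT18 A. Its highest layer was layer 3 (54.8 CPM) and its lowest layer 8 (33.6 CPM).

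Hnf4a measured 222 ± 50.4 CPM pericentrally and 249.5 ± 47.3 periportally (SD, n = 10), higher periportally in 10 of 10 libraries, as were 5.59% of all genes. The log2 difference was 0.17 ± 0.06 (SE; 1.13-fold, edgeR adjusted p = 0.0467), and the call was lost in 15 of 25 alternatives, with adjusted p between 0.0180 and 0.457 over all settings. An overlapping antisense gene, Hnf4aos (314 UMIs), had a zone difference of -0.29 ± 0.22 (edgeR adjusted p = 0.381).

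The other 6 receptors were not called between zones. Their log2 differences were -0.19 ± 0.09 for Nr1h4 (edgeR adjusted p = 0.108), -0.15 ± 0.07 for Rxra (0.125), -0.05 ± 0.08 for Nr1h3 (0.708), -0.03 ± 0.08 for Nr5a2 (0.853), 0.15 ± 0.11 for Nr1i2 (0.381) and 0.21 ± 0.11 for Nr0b2 (0.160). Their layer means varied from 1.12-fold (Nr1h3 and Nr5a2) to 1.36-fold (Nr0b2). Without TMM, scaling by library size alone shifted the median zone difference of all genes from -0.006 to -0.105 and the share of calls that were periportal from 48.3% to 27.9%; Nr1h4 (-0.29, edgeR adjusted p = 0.0132) and Rxra (-0.25, 0.00554) were then called and Hnf4a was not.

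**Figure D2:**
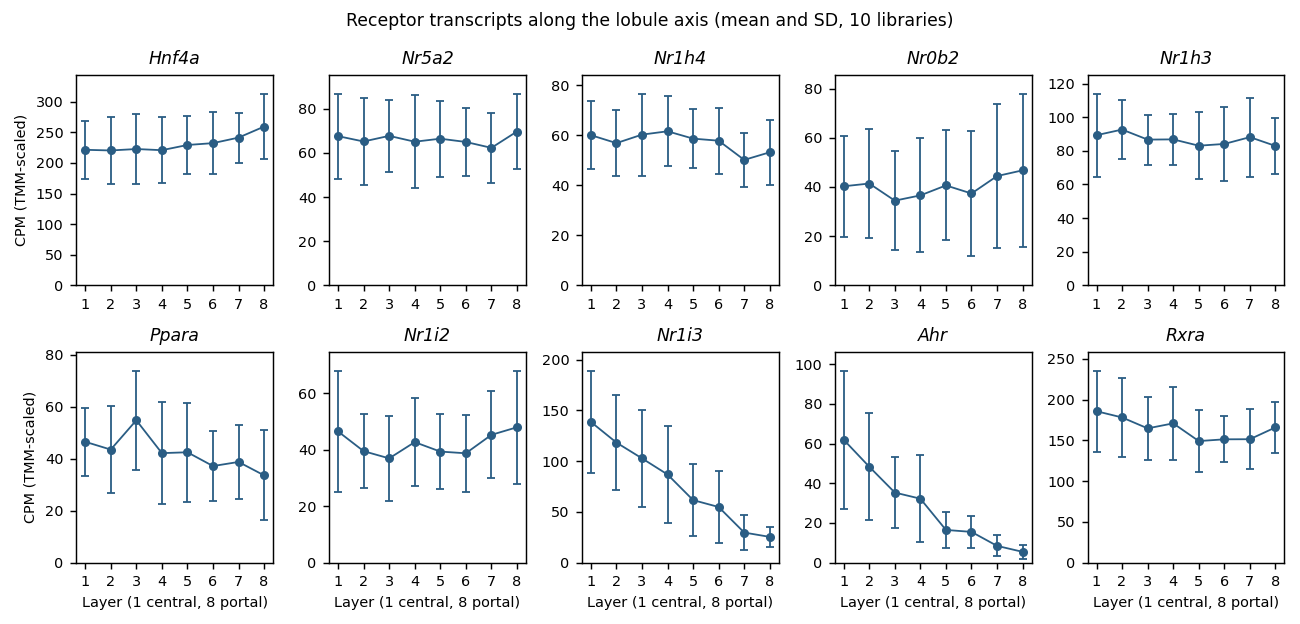
Level of each receptor transcript (vertical axis, TMM-scaled CPM from 0) in 8 layers of equal cell number (horizontal axis, 1 nearest the central vein, 8 nearest the portal tract); points are means and bars SDs over 10 libraries. The means of Nr1i3 and Ahr fall at every step, from 139 to 25.3 and from 61.9 to 5.39 CPM. The bars of neighbouring layers overlap for all receptors, Nr1i3 and Ahr included, but they show spread between libraries and times, not within a library. Layer 1 was above layer 8 in 10 of 10 libraries for both Nr1i3 and Ahr.

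**Figure D3:**
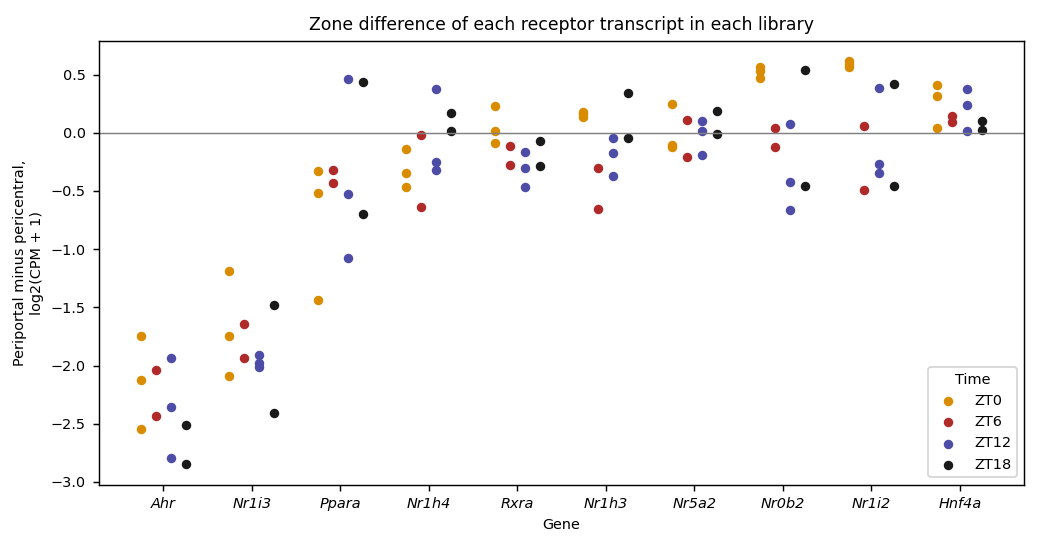
Zone difference of each receptor (vertical axis, log2(CPM + 1) of the periportal zone less that of the pericentral zone) in each of the 10 libraries, coloured by zeitgeber time, with genes ordered by their mean (horizontal axis). All points of Ahr (-2.85 to -1.75) and Nr1i3 (-2.41 to -1.19) lie far below 0, all points of Hnf4a lie above 0, and the other receptors have points on both sides.

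Zone differences were also set side by side for receptors that share a partner or a ligand class. On the log2(CPM + 1) scale the zone difference of Nr1i3 minus that of Nr1i2 was -1.94 ± 0.61 (SD), lower in 10 of 10 libraries. Ahr minus Arnt, which encodes its dimer partner, was -2.19 ± 0.59, also in 10 of 10. Arnt itself measured 22.1 ± 6.31 CPM pericentrally and 19.95 ± 5.04 periportally. Ppara minus Rxra was -0.29 ± 0.59, lower in 8 of 10, and Nr1h4 minus Nr1h3 was -0.08 ± 0.35, lower in 5 of 10. These pairs were chosen after the zone values had been seen, so the differences are a description.

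Whether the zone difference moved with time was asked with a zone-by-cosine term, and 0 of 10 receptors were called (edgeR, 0.0448% of all genes; 3 had an unadjusted p under 0.05, against 6.16% of all genes, and DESeq2 called 0 of the receptors and 0 of all genes). Nr1i3 kept a pericentral excess at each time, with mean log2 differences of -1.67 ± 0.46 (SD, n = 3) at ZT0, -1.79 ± 0.21 (n = 2) at ZT6, -1.96 ± 0.05 (n = 3) at ZT12 and -1.94 ± 0.66 (n = 2) at ZT18. In the pericentral zone its mean was 176 CPM at ZT12 and 65.1 at ZT18, and in the periportal zone 44.1 and 16.3 CPM. Ahr likewise had differences of -2.14 ± 0.40, -2.24 ± 0.28, -2.36 ± 0.43 and -2.68 ± 0.24 in the order of times. The ZT18 value of Ahr rests on 52 pericentral and 7 periportal UMIs from the 2 libraries.

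The 3 receptors with an unadjusted p under 0.05 were Nr0b2, Nr1i2 and Nr1h3. Nr0b2 was higher periportally in 3 of 3 libraries at ZT0, by 0.52 ± 0.05 (SD), and its mean difference was -0.04 ± 0.12 at ZT6, -0.34 ± 0.38 at ZT12 and 0.04 ± 0.70 at ZT18 (edgeR adjusted p = 0.590). Nr1i2 was also higher periportally in 3 of 3 libraries at ZT0, by 0.59 ± 0.03, and differed by -0.22 ± 0.39, -0.07 ± 0.40 and -0.02 ± 0.63 at the later times (edgeR adjusted p = 0.728). Nr1h3 was higher periportally by 0.16 ± 0.02 at ZT0, lower by a mean difference of -0.48 ± 0.25 at ZT6 and -0.20 ± 0.17 at ZT12, and at 0.15 ± 0.27 at ZT18 (edgeR adjusted p = 0.647). None of these 3 passed the adjusted threshold.

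**Figure D4:**
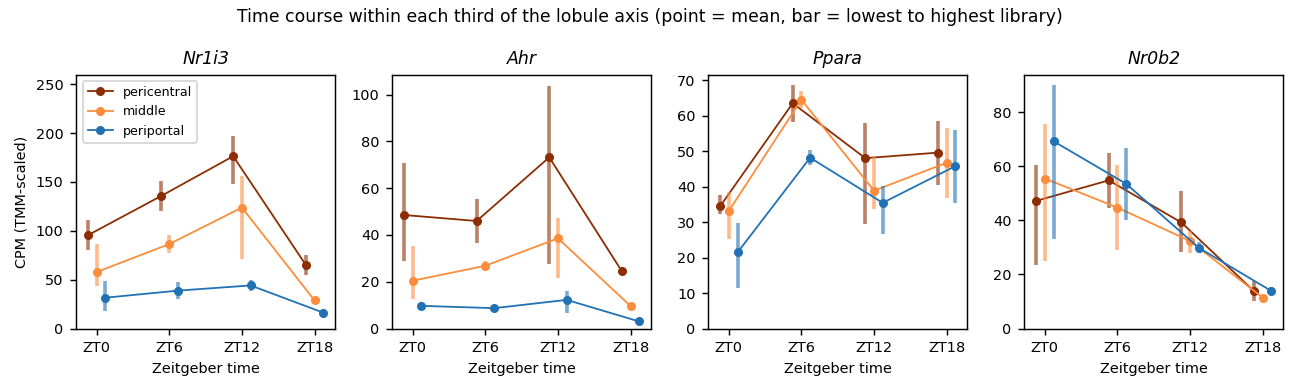
Level (vertical axis, TMM-scaled CPM from 0) of Nr1i3, Ahr, Ppara and Nr0b2 at each zeitgeber time (horizontal axis) in the pericentral, middle and periportal groups of cells; points are means and bars run from the lowest to the highest of 3, 2, 3 and 2 libraries. Nr1i3 keeps the order pericentral, middle, periportal at each time (176, 124 and 44.1 CPM at ZT12). In that order the means of Nr0b2 are 47.2, 55.5 and 69.3 CPM at ZT0, and 13.8, 11.5 and 13.9 CPM at ZT18.

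Other genes of the receptors' networks were described from lists. Among 24 other nuclear receptors tested, 5 were called for rhythm (5.14% of all genes). Between zones 5 were called (24.8% of all genes), 3 higher periportally and 2 pericentrally. These shares of all genes apply to the lists below as well. Nr1d1 and Nr1d2, which encode the clock repressors REV-ERB alpha and beta, had fitted peaks at ZT7.03 and ZT10.2. Nr1d2 measured 7.30 ± 0.981 CPM at ZT0 (SD, n = 3) and 73.5 ± 10.8 at ZT12 (n = 3). Between zones, Esr1 (1.22 ± 0.14) and Esrra (1.06 ± 0.12) were higher periportally on the log2 scale, and Pparg was 10.4 ± 3.08 CPM pericentrally against 0.602 ± 0.675 periportally (SD, n = 10).

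Of 23 partners and coregulators tested, 1 was called for rhythm (5.14% of all genes). Between zones 4 were called (24.8% of all genes), 2 higher periportally and 2 pericentrally. The rhythmic one was Ppargc1a, which encodes the fasting co-activator PGC-1 alpha: it peaked at ZT10.1 (log2 amplitude 0.69, edgeR adjusted p = 0.00828) and was higher periportally by 1.73 ± 0.16 (26.5 ± 11.6 against 7.68 ± 3.23 CPM). Ppargc1b, its relative, was higher periportally by 0.76 ± 0.20, and Ptges3, an HSP90 co-chaperone, was lower there by a log2 difference of -0.22 ± 0.06.

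Targets of PXR and CAR were mostly higher on the central side. Of 12 PXR and CAR targets tested, 10 were higher pericentrally and 1 periportally, with a median log2 difference of -0.86 (all genes -0.006). Cyp2c29, a drug-oxidising cytochrome P450, measured 1964 ± 897 CPM pericentrally and 89.2 ± 70.6 periportally (log2 difference -4.52 ± 0.15). Slco1b2, an uptake transporter of organic anions, differed by -1.99 ± 0.08, and Por, the electron donor of microsomal P450 enzymes, by -1.14 ± 0.08. In time 3 of 12 were called: Por (fitted peak ZT11.5), Alas1, the first enzyme of haem synthesis (ZT13.0), and Abcc2, a canalicular exporter (ZT8.61). Cyp2b10, the classical CAR target, measured 12.8 ± 8.36 CPM pericentrally and 5.94 ± 3.12 periportally (log2 difference -0.83, edgeR adjusted p = 0.00369).

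Of the AHR targets, 4 were tested in time and 0 were called for rhythm by edgeR. In the zone test, with the landmark Cyp1a2 left out, 3 were tested and 2 were higher pericentrally: Ugdh, which makes UDP-glucuronate (-0.82 ± 0.07), and Nqo1, a quinone reductase (-0.90 ± 0.27). Cyp1a1, the most inducible AHR target, was low, with means per time from 0.271 to 1.30 CPM.

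PPAR alpha targets were also higher on the central side, 13 of 21 tested against 1 higher periportally, with a median log2 difference of -0.55. Acot1, an acyl-CoA thioesterase, differed by -3.39 ± 0.16, Cyp4a10, a fatty acid hydroxylase, by -2.78 ± 0.14 and Acaa1b, a peroxisomal thiolase, by -1.49 ± 0.07. For rhythm 3 of 21 were called: Cpt1a, which admits fatty acids to mitochondria (peak ZT10.6), Plin2, a lipid droplet coat protein (ZT1.41), and Ehhadh, a peroxisomal oxidation enzyme (ZT19.6). These 3 fitted peaks lay far apart in the day.

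Of 9 FXR and SHP targets tested, 5 were higher pericentrally and 3 periportally, and 3 were called for rhythm. Cyp7a1, the rate-limiting enzyme of bile acid synthesis, measured 223 ± 173 CPM pericentrally and 20.3 ± 20.2 periportally (log2 difference -3.68 ± 0.16), while Abcb11, the bile salt export pump, was higher periportally by 0.39 ± 0.07. Cyp7a1 (peak ZT13.3, edgeR adjusted p = 0.0431), Baat, which conjugates bile acids (ZT19.2, 0.0317), and Abcb4, a phospholipid exporter (ZT8.98, 0.0478), were the rhythmic ones.

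Of 7 LXR targets tested, 2 were called for rhythm, the sterol export partners Abcg5 (peak ZT9.11) and Abcg8 (ZT8.17); Abcg8 was 62.3 ± 9.39 CPM at ZT12 (SD, n = 3) and 12.9 ± 2.65 at ZT18 (n = 2). In the zone test 3 were higher pericentrally, led by Pltp, a phospholipid transfer protein (-2.08 ± 0.18), and 1 periportally, Srebf1, a regulator of fatty acid synthesis (0.46 ± 0.08). Of 9 LRH-1 targets tested, 2 were called for rhythm, 4 were higher pericentrally and 2 periportally. That list shares Cyp7a1 and Cyp8b1 with the FXR and SHP list and Abcg5 with the LXR list, and holds Nr0b2 itself.

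HNF4 alpha targets leaned the other way: 10 of 15 tested were higher periportally and 2 pericentrally, with a median log2 difference of 0.28. Apoa1, the main HDL protein, was higher periportally by 0.75 ± 0.09 and Serpina1c, an antitrypsin, by 0.52 ± 0.06, whereas Ugt2b1, a glucuronidating enzyme, differed by -0.93 ± 0.07. For rhythm 1 of 15 was called, the glucose transporter gene Slc2a2 (peak ZT10.7, edgeR adjusted p = 0.0170). Counts over lists are descriptions, since the lists were chosen with earlier results known and share genes.

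The genes most like each receptor were ranked by Pearson's r of log2(CPM + 1) over 12 means (4 times by 3 groups of cells) among 4334 genes; the points share libraries and depth, so r is a description. Nr1i3 and Ahr were each other's closest gene (r = 0.978). Next to Nr1i3 came Papss2 (0.974) and Rnase4 (0.963), and next to Ahr came Cyp4a10 (0.970) and Ces1g (0.959). Nr0b2 was most like Abhd17c (0.962), Bsg (0.957) and Tst (0.957), and Rxra most like Slc25a10 (0.944), Nr1d2 (0.932) and Lpin2 (0.926). The closest genes were Gys2 (0.887) for Hnf4a, Chmp2a (0.954) for Nr5a2, Zfp639 (0.944) for Nr1h4, Ormdl3 (0.886) for Nr1h3, Scaf11 (0.938) for Ppara and Erbb2ip (0.886) for Nr1i2.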

How the data were processed

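UMI counts per gene and cell were deposited by the authors, 1 table per library. Cell Ranger and the builds hg19 and mm10 are named, with no role, in the submitters' processing notes; the annotation, counting strand and cell filter are not given in the sources used here. Cell columns are running numbers, so barcodes shared between libraries were not counted. All 18378 cells were kept, since none had under 1000 UMIs or over 35% of UMIs from mitochondrial genes; doublets were not called. Replicate libraries were not copies. Chi-square per degree of freedom was 6.14 for the ZT6 pair, 5.76 for the ZT18 pair and 24.0 to 68.8 for pairs within ZT0 or ZT12. Coordinates came from GENCODE M21 (GRCm38) by symbol.

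Counts were summed per library, and per zone within a library, and went into edgeR's quasi-likelihood test (version 4.0.16 under R 4.3.3, functions glmQLFit and glmQLFTest, TMM factors 0.888 to 1.143). Genes averaging 3 CPM or more were tested, with p-values adjusted by Benjamini-Hochberg over all of them. SE is the log2 difference divided by the square root of F. Time tests were a 24-h cosine and sine (2 df), any difference among 4 times (3 df), ZT12 against ZT0 and ZT18 against ZT6. The zone score was the mean z-score, within a library, of 8 periportal minus 8 pericentral landmarks. Scripts were tested on simulated data.

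Named genes are the 10 receptors, up to 3 genes per list with the lowest adjusted p in the rhythm and in the zone test, and genes most like each receptor (mean CPM at least 20). Arnt, Cyp2b10, Cyp1a1, Cyp8b1, Tomm40l, Hnf4aos and the marker genes were named outside this rule, after their values were seen. Some genes that the rule names are not reported here. Receptors and lists were chosen with earlier results of these data known. Between ZT0 and ZT12 deviations of same-letter libraries correlated (r = 0.270, 0.510 and 0.625), libraries that also share an index number; other same-letter pairs gave -0.115 to 0.193. Alternatives covered DESeq2 1.42.0, scaling, filters, blocks, cell subsets, zone definitions and each library left out; leaving both ZT18 libraries out of the zone test was added after seeing the data.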

Additional observations from a re-analysis of the deposited data

How the results depend on the processing

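Of 1320 recomputed values of the 10 receptors, 1250 kept direction and side of the threshold, 30 lost and 31 gained a call, and 9 reversed. Beside each count of receptors, the share of all genes called in that setting is in parentheses. Rhythm calls (0) became 2 with DESeq2 (8.89%) or no filter on low genes (4.97%), 1 with the letter as a replicate block (8.41%), the index number as a block (6.99%), cells of at least 3000 UMIs (2.97%) or without the 5% of cells with most UMIs (4.93%), and 0 to 1 with each library left out. Calls among times (2) became 4 with DESeq2 (8.79%), 5 without a filter (7.50%), 0 without both ZT18 libraries (2.60%) and 0 to 3 with each library left out. ZT12 against ZT0 (0 calls) gave 1 with DESeq2 (4.11%), no filter (3.28%), the letter block (5.66%) or without the 5% of cells (3.55%), 3 with the index number as a block (Nr1i2, Nr1i3 and Rxra; 8.61%), and 0 to 1 with each library left out; the letter block changed no call but those of Nr1i3. ZT18 against ZT6 (2 calls) gave 1 with cells of at least 3000 UMIs (1.11%; Nr1i3 lost, edgeR adjusted p = 0.0961) and 0 to 2 with each library left out. Zone calls (4) were 2 with no replicate block (12.3%; Hnf4a and Ppara lost, Ppara at edgeR adjusted p = 0.0651) and 3 to 4 with each library left out; Nr1i3 and Ahr were called in 26 of 26 settings. Scaling by library size alone (28.5%) lost Hnf4a and gained Nr1h4 and Rxra. Without both ZT18 libraries (21.9%), Nr1h4 was gained (edgeR adjusted p = 0.0493). Hnf4a alone was lost with DESeq2 (18.2%), no filter (16.6%), cells of at least 3000 UMIs (13.8%) or without the 5% of cells (23.2%). It was also lost with 2 equal groups of cells (23.2%) and with odd-numbered (23.8%) or even-numbered (23.4%) landmarks. Zone-dependent rhythm stayed at 0 calls in 26 alternatives. None of the reversed values was called in either setting: ZT12 against ZT0 for Nr1h4 (-0.14) and Ahr (-0.062) and ZT18 against ZT6 for Nr1h3 (0.16) with cells of at least 3000 UMIs; ZT12 against ZT0 for Nr5a2 without ZT0 C (0.0069, range -0.29 to 0.0069 with each library left out); ZT18 against ZT6 for Hnf4a without ZT6 B (-0.081) or ZT18 A (-0.072; range -0.081 to 0.43) and for Nr1h4 without ZT18 A (0.11; range -0.65 to 0.11); and the zone difference of Nr5a2 without ZT6 A (0.0029; range -0.060 to 0.0029) or with outer eighths (0.015). The cause was not tested. With the index number as a block, ZT18 against ZT6 and the test among times could not be fitted. That block also takes up the ZT18 level, so its cosine and zone-by-cosine terms rest on ZT0, ZT6 and ZT12 alone. Where 1 of 2 libraries was left out, the lone library was assumed to vary like the other groups. With 37 to 49 UMIs per ZT18 library, Nr0b2 and Ahr carry the most counting error.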
